A study of Homo sapiens with 4 samples.

Results

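Interferon-stimulated genes are genes whose transcription is raised by interferons, and 40 of them were followed here in slow-cycling and ungated MDA-MB-231 breast cancer cells. The members were the rows of the count table that carry 1 of 40 gene symbols: 31 effectors, whose products act on viral or cellular RNA, membranes and proteins, 4 sensors of nucleic acid (IFIH1, DDX58, DHX58 and IFI16), and 5 transcription factors (STAT2, IRF1, IRF2, IRF7 and IRF9). All 40 were found among the 58735 genes of the table. A mean of at least 1 CPM (reads scaled to the library total) over the libraries was reached by 14585 genes, 38 members among them. The effectors RSAD2, with 1, 3, 3 and 0 reads, and XAF1, with 2, 6, 0 and 2 reads, fell under that level and entered no comparison. Where 4 values are given for a gene, here and below, their order is Bulk, Claret, eGFP, Violet, and where 3 ratios to Bulk are given it is Claret, eGFP, Violet. A count of 0 allows up to 0.193 CPM in Violet and 0.189 CPM in eGFP.

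MDA-MB-231 is an established human line of triple-negative breast cancer. All 4 groups consisted of MDA-MB-231 cells transduced with TetOn-H2BeGFP, a histone-eGFP fusion switched on by doxycycline, and, per the labels' protocols, the cells received doxycycline at 5 μg/ml for 3 days and the dyes Claret and Violet, followed by a chase of 12 days. The cells in the top 1% for Claret, for eGFP or for Violet were sorted as 3 slow-cycling groups, and Bulk cells were sorted with no gate on fluorescence. Each group holds 1 library, so no difference below has a replicate check, and a test on reads compares 2 libraries, not 2 conditions. The treatment field of every sample names another sort than its title does: Claret for the library titled Bulk, eGFP for Claret, Violet for H2B-eGFP and un-gated for Violet. The titles, whose names the table columns carry, were used throughout, and every direction given against Bulk is a direction against the library titled Bulk.

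Summed reads ran from 15508179 to 16976909 per library. VIM, CD44 and KRT18, which MDA-MB-231 cells express, had at least 2690 reads in every library, while ESR1 had at most 7, PGR 0 and CDH1 at most 3. ERBB2, whose amplification triple-negative tumours lack, was read 1415 to 1542 times per library, or 8.54 to 9.06 FPKM. Of the markers of other cell types, PTPRC, CD3E and CDH5 had 0 to 2 reads, CD14 had 5 to 11, EPCAM 28 to 61 and PECAM1 54 to 87. The proliferation marker MKI67 counted 6778 reads in the Bulk library, beside 689 to 995 in the slow-cycling ones, and TOP2A, another, counted 14220 beside 2487 to 3399. The library that the treatment field calls Claret, titled Bulk, therefore held the most reads of both proliferation markers. Their part in any result for the interferon-stimulated genes was not tested.

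Type I and type III interferons bind receptors that activate the kinases JAK1 and TYK2, which phosphorylate STAT proteins, STAT2 among them. STAT2 and IRF9 are subunits of the complex ISGF3, which binds the interferon-stimulated response element (ISRE) in the promoters of many of the genes studied here. Sensors such as IFIH1 (MDA5) and DDX58 (RIG-I) recognise foreign or misplaced RNA and lead to interferon production, and many sensors and factors are themselves interferon-induced, so the pathway feeds back on itself. In cancer cells a low level of such genes can be present without infection.

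The promoters were compared first, because the ISRE lies in the promoters of many of these genes. RefSeq promoter windows (GRCh38.p14, 250 bases before to 50 bases after the gene start) matched 29 of the 40 members. Those unmatched were IFIT2, OAS2, OASL, IFITM2, MX2, USP18, TRIM22, DDX58, DHX58, IRF2 and IRF7. The ISRE core was searched on both strands as GAAA repeated after any 2 bases, which on the other strand reads as TTTC repeated after any 2 bases, and overlapping matches were counted. It was present in 18 of the 29 windows (62.1%), against 3.57% of all 35116 promoter windows of this length. By role it was found in 17 of 24 effectors, 13 of them with at least 2 matches. Of 2 sensors it was found in IFIH1 but not IFI16, and it was found in 0 of 3 factors (STAT2, IRF1 and IRF9). The IFI16 window, from 159008741, lies inside the gene's span in the count table, which begins at 158999968. The effector windows without a match were those of OAS1, RSAD2, HERC6, SP100, PARP9, IFI35 and XAF1. GAAA repeated after a single base was not searched for, and it is present in the windows of OAS1, RSAD2, IFI35 and XAF1. For comparison, the gamma-interferon activation element TTCNNNGAA was present in 8 of the 29 windows and in 7.66% of all windows, and the AP-1 element TGANTCA was present in 3 (IFIT5, ISG20 and SP100) and in 7.71% of all windows. These last 2 patterns are their own reverse complements. A match describes the letters of the window and is not a site shown to bind a factor, and a window without one says nothing of the factors.

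The windows of 6 members are shown as examples, and the comparisons of reads below make no use of them. Of these members, the effectors OAS3, ISG20, IFITM1 and MX1 were called in at least 1 comparison. The others are the sensor IFIH1, and the factor STAT2 as a window with no match. The windows are given 5′ to 3′ on the strand of the gene, with ISRE matches in capitals.
OAS3 (chr12:112938224-112938523, plus strand): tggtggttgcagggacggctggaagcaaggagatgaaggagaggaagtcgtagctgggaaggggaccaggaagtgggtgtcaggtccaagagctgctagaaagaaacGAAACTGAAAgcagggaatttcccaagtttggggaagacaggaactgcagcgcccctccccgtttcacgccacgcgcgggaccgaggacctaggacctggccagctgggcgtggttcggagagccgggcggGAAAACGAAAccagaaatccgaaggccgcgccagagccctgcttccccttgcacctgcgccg
ISG20 (chr15:88638766-88639065, plus strand): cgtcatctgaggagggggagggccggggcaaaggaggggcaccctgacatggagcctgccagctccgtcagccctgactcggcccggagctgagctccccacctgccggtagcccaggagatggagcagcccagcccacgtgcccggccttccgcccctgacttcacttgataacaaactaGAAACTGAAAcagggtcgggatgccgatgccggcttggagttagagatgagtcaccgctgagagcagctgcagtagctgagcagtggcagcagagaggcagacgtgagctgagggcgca
IFITM1 (chr11:313790-314089, plus strand): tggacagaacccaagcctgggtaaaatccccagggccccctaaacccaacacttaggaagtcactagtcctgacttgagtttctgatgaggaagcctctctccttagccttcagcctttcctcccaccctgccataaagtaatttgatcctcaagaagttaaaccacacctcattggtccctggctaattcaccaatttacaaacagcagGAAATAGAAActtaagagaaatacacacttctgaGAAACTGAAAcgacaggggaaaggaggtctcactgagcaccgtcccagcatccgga
MX1 (chr21:41420308-41420607, plus strand): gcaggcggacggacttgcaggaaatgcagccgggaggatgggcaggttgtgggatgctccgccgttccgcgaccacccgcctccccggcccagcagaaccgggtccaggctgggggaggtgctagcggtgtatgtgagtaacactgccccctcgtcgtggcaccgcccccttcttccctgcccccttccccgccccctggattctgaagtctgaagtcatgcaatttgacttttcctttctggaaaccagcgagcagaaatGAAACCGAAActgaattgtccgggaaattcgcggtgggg
IFIH1 (chr2:162318635-162318934, minus strand): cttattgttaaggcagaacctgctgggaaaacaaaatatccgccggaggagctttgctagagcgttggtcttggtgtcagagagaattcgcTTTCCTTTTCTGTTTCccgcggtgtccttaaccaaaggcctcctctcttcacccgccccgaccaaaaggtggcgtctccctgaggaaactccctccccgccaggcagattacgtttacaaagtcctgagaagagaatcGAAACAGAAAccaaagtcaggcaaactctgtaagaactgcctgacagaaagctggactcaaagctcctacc
STAT2 (chr12:56360058-56360357, minus strand): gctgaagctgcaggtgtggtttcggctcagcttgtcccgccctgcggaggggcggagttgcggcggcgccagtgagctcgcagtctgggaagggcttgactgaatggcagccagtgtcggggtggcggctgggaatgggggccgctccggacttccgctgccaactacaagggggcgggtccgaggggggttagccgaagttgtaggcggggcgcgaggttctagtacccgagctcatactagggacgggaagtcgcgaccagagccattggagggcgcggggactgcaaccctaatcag
The first match began at position -143 from the gene start in OAS3, at -69 in ISG20, at -40 in IFITM1, at 11 in MX1 and at -159 in IFIH1. OAS3 and IFITM1 held 2 matches each, ISG20 and MX1 held 1 each, and IFIH1 held 3. OAS3 and ISG20, which moved in opposite directions below, carried the same 10 letters at their first match. The windows of ISG20, IFITM1 and MX1 lie wholly inside the longer spans that the count table gives for these genes.

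For 7 further effectors that were not called in any comparison, the first match is shown with 5 bases on each side, in capitals as before.
IFIT1: tttagTTTCACTTTCccctt
IFIT3: ttaggTTTCATTTTCctcct
IFIT5: ttaagTTTCGGTTTCtgaag
IFITM3: gccagGAAAAGGAAActgtt
BST2: tctggGAAACTGAAActgaa
ISG15: ctcggGAAAGGGAAAccgaa
IFI6: gagggGAAAATGAAActctg
IFIT1, IFIT3 and IFIT5 carried the TTTC form, and the other 4 carried the GAAA form.

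The 38 members that passed the level filter spanned a wide range of expression. Levels were compared between genes as FPKM, which is per gene length. Their median FPKM, averaged over the 4 libraries, was 5.21, beside 5.23 over all genes kept. Averages of at least 10 FPKM were seen in 11 members, and 9 lay under 1 FPKM. IFITM3, which restricts virus entry at endosomal membranes (ENSG00000142089, chromosome 11, 319669 to 327537), was the most abundant member, with 136, 156, 156 and 149 FPKM. IFITM2 followed at 42.5, 66.9, 55.4 and 59.8 FPKM, and ISG15, a ubiquitin-like modifier, at 41.5, 36.6, 34.9 and 35.2 FPKM. At the other end, TRIM22 averaged 0.196 FPKM, MX2 0.386 and OAS2 0.539. Effectors thus ran from 0.196 to 149 FPKM around a median of 3.61, and the 9 sensors and factors from 0.957 (IRF9) to 16.1 (STAT2) around a median of 8.35.

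**Figure D1:**
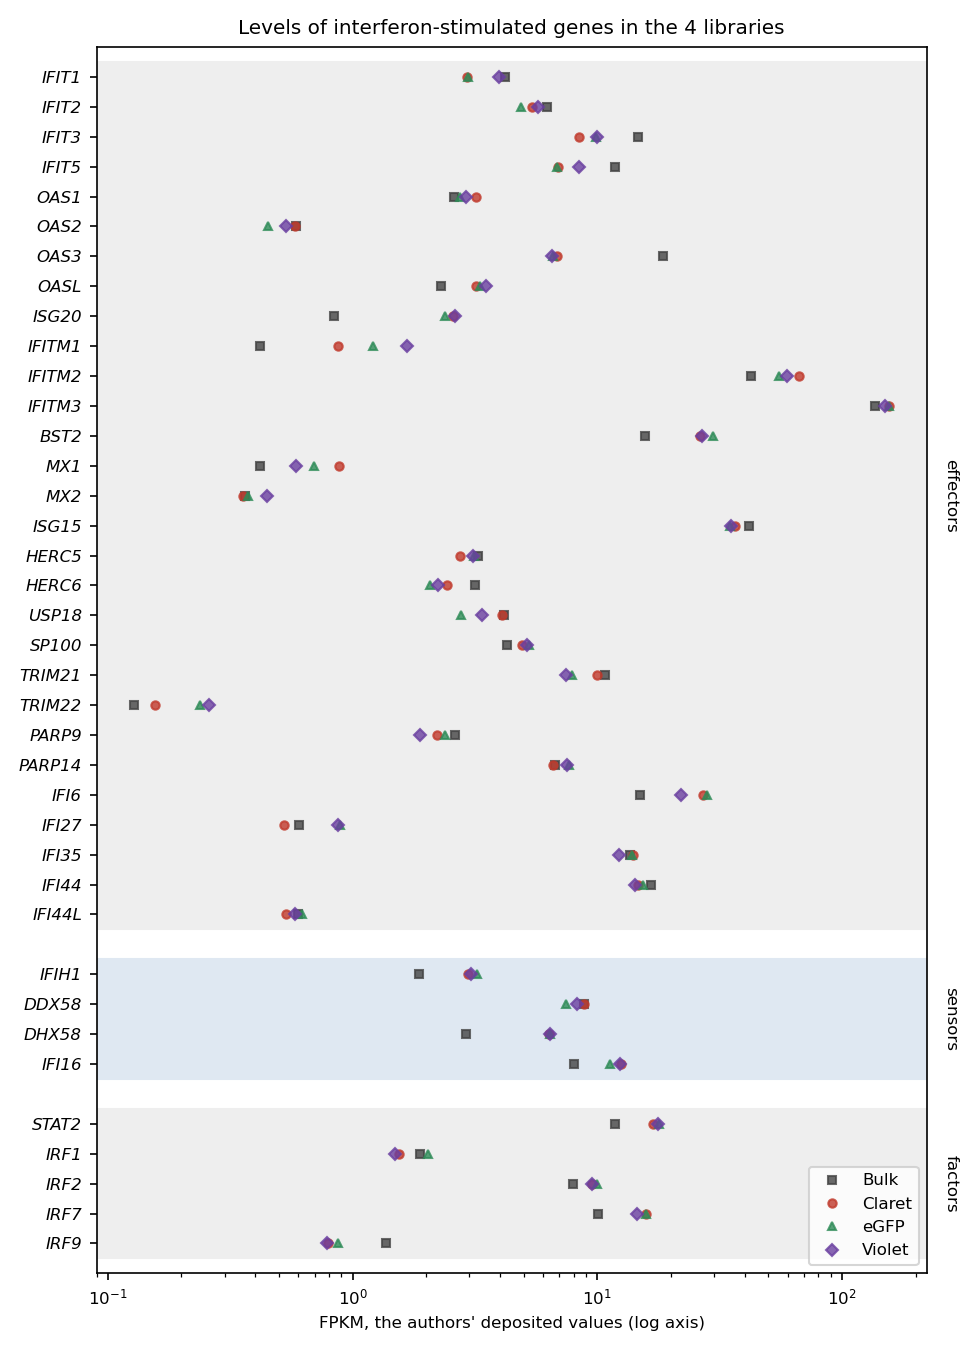
FPKM of the 38 members kept, on a log axis, with 1 point for each of the 4 libraries (1 library per group, so no error bars) and members ordered by role. IFITM3 lies at 136 to 156 FPKM in every library, and OAS3 has its Bulk point (18.6) apart from its other points (6.55 to 6.82).

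Summed over all members, reads were 1134, 1213, 1215 and 1243 CPM. The effectors summed to 896, 878, 878 and 899 CPM, with 19.8% to 24.1% of these reads from IFITM3. The sensors summed to 98.5 CPM in Bulk and to 144, 134 and 146 CPM in the slow-cycling libraries, and the factors to 139 CPM in Bulk and to 190, 203 and 198 CPM. The effector total was therefore about level across libraries, while the totals of the sensors and of the factors were lowest in Bulk. OAS3 gave 148.4 CPM of the effector total in Bulk and 56.25, 54.89 and 55.97 CPM in the slow-cycling libraries. Without OAS3, the effector called lower below, the other effectors together were thus lowest in Bulk, a direction partly set by that choice. With IFITM3 left out instead, the effectors summed to 718, 668, 667 and 690 CPM, highest in Bulk. On the TMM scale the total of all effectors was 912, 879, 878 and 882 CPM, also highest in Bulk. In pooled cells, fewer cells that express a gene and less RNA per cell cannot be told apart.

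Against Bulk, few members were called. A gene was called when its log2 ratio, on TMM-scaled CPM with a prior count of 2, was at least 1 in size and the exact binomial test on the reads of the 2 libraries, Benjamini-Hochberg adjusted over the 14585 genes, was under 0.05. In Claret 3 of 38 members were called higher (ISG20, MX1 and DHX58), or 7.89%, where 11.3% of all genes were, and 1 was called lower (OAS3), or 2.63%, where 6.68% of all genes were. In eGFP 3 were called higher (ISG20, IFITM1 and DHX58), where 11.9% of all genes were, and OAS3 was called lower, where 7.63% were. Violet gave the same 4 genes as eGFP, beside 11.3% of all genes called higher and 7.01% called lower. In each comparison the share of members called was below that of all genes, in both directions. These shares rest on at most 3 members in either direction, too few to set the members apart from genes in general. With no minimum on size, 21, 27 and 23 of the 38 members passed the adjusted binomial test. Of all genes, 68.8%, 69.9% and 69.3% passed it. The 3 comparisons share the Bulk library.

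The median log2 ratios of the members were 0.02, 0.13 and 0.19, beside -0.01, -0.01 and 0.00 over all genes. Log2 ratios within 0.5 of 0 were found for 23, 19 and 21 members (60.5%, 50% and 55.3%). Over all genes the shares were 54.9%, 53.3% and 53.9%. Bulk was the lowest of the 4 libraries on the TMM scale in 17 members, the highest in 13 and between the others in 8. Over all genes kept, Bulk was the lowest in 42.4% and the highest in 43.0%.

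**Figure D2:**
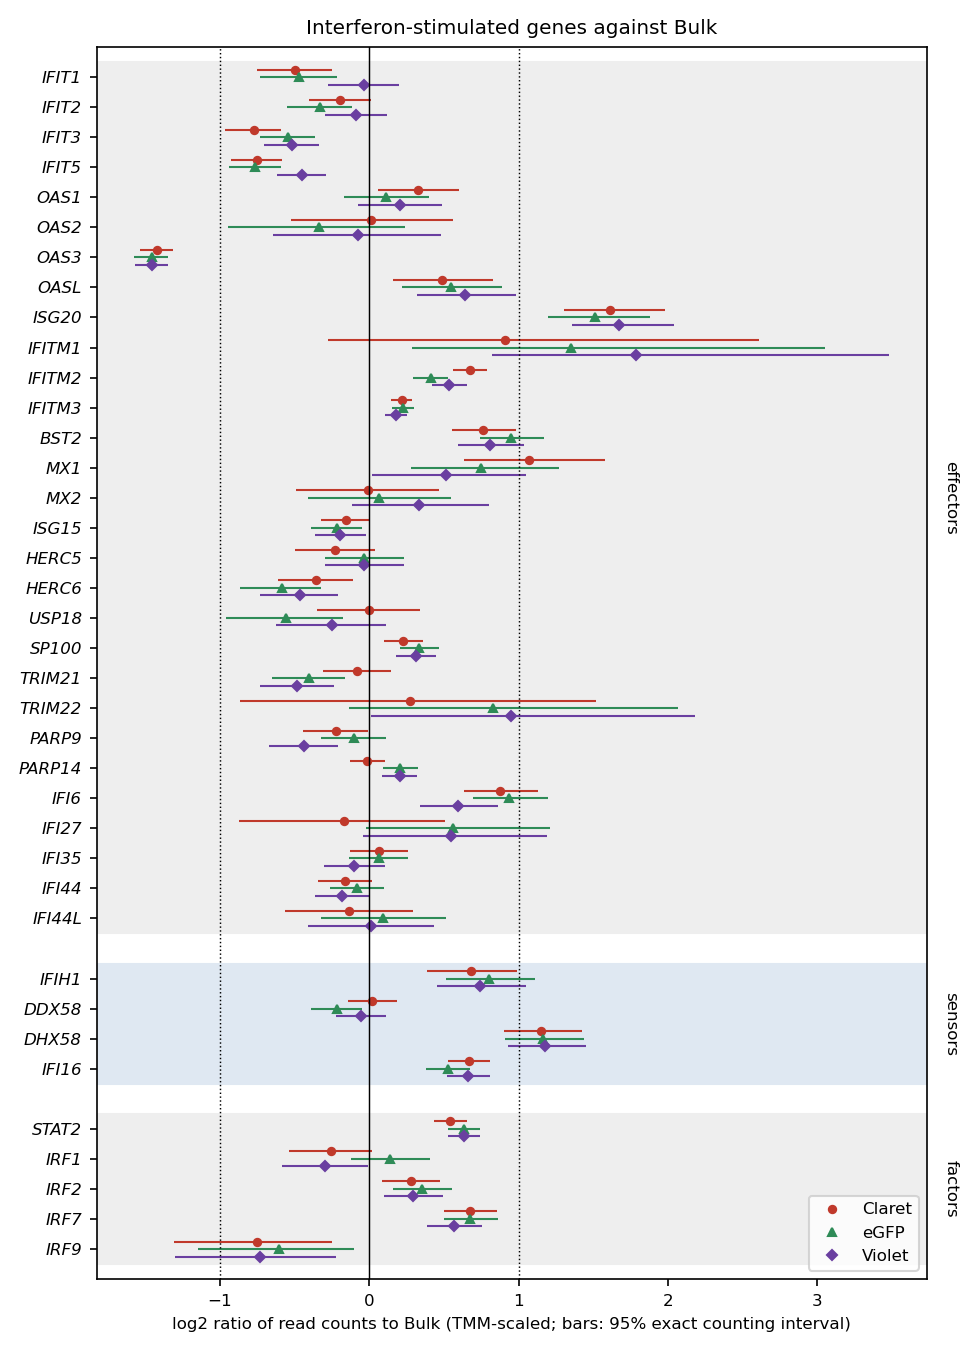
Log2 ratio of each of the 38 members to Bulk in Claret, eGFP and Violet, with exact 95% intervals that cover counting error only, and lines at -1 and 1. OAS3 lies at -1.46 to -1.42, ISG20 at 1.51 to 1.67 and DHX58 at 1.15 to 1.18, and the wide intervals of IFITM1 go with its 7 reads in Bulk.

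Among the OAS family and ISG20, 5 effectors most of which act through RNA cleavage, OAS3 and ISG20 were called in opposite directions in all 3 slow-cycling libraries. OAS3 (ENSG00000111331, chromosome 12, 112938352 to 112973249, GRCh38), which makes the 2′-5′-oligoadenylate that activates RNase L, had 2380, 955, 871 and 868 reads, or 18.6, 6.82, 6.61 and 6.55 FPKM. The 3 slow-cycling libraries lay close together and far under Bulk. OAS3 fell by 1.42 on the log2 scale in Claret (95% interval -1.53 to -1.31), by 1.46 in eGFP (-1.57 to -1.35) and by 1.46 in Violet (-1.57 to -1.35), so that Bulk was 2.68 to 2.75 times as high. It was the 1 member called lower.

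ISG20 (ENSG00000172183, chromosome 15, 88636153 to 88656483), a 3′-5′ exonuclease that degrades single-stranded RNA, had 96, 321, 280 and 311 reads, or 0.839, 2.57, 2.38 and 2.63 FPKM. It rose by 1.62 (1.30 to 1.98), 1.51 (1.19 to 1.88) and 1.67 (1.36 to 2.04) on the log2 scale, or 2.86-fold to 3.19-fold. ISG20 remained a gene of low level, under the effector median of 3.61 FPKM in every library. On log2(FPKM + 1), which understates changes at such levels, its ratios were 0.96, 0.88 and 0.98.

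OAS1, OAS3 and OAS2 lie side by side, in this order, within 105 kb of chromosome 12. OAS1, a synthetase of the same product, had 199, 269, 217 and 230 reads, with log2 ratios of 0.33, 0.11 and 0.20. OAS2 had 57, 62, 45 and 54 reads, with ratios of 0.01, -0.34 and -0.08. OASL, a relative without synthetase activity, had 126, 191, 186 and 198 reads, with ratios of 0.49, 0.54 and 0.64. OAS3 was thus the 1 gene of the 4 that was called. Shared 31-base words with other genes made up 1.96% of OAS3 and 1.66% of ISG20.

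IFIT proteins such as IFIT1 and IFIT5 bind viral RNA by its 5′ end, and all 4 IFIT genes lie within 137 kb of chromosome 10. None was called, and all 4 had TMM-scaled ratios below 0 in all 3 slow-cycling libraries, with medians of -0.62, -0.51 and -0.27, except that without TMM IFIT1 in Violet was at 0.0142. IFIT3 had 602, 378, 415 and 421 reads, with log2 ratios of -0.77 (-0.97 to -0.59), -0.55 (-0.73 to -0.36) and -0.52 (-0.70 to -0.34). IFIT5 had 739, 471, 438 and 541 reads, with ratios of -0.75, -0.76 and -0.45. IFIT1, with 302, 230, 219 and 295 reads, was below Bulk in Claret (-0.50, -0.75 to -0.25) and eGFP (-0.47, -0.73 to -0.22), and its interval in Violet spanned 0 (-0.04, -0.27 to 0.20). IFIT2 had 399, 375, 319 and 376 reads, with the smallest differences of the group in Claret and eGFP (-0.19 and -0.33).

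The membrane-acting effectors went the other way. All 4 that were kept had ratios above 0 in each slow-cycling library, with medians of 0.72, 0.68 and 0.67. BST2 (tetherin), which holds budding virus at the cell surface, had 273, 500, 533 and 481 reads, with log2 ratios of 0.76 (0.55 to 0.98), 0.95 (0.74 to 1.17) and 0.81 (0.60 to 1.03), just under the size needed for a call. IFITM2, which restricts virus entry, had 1020, 1751, 1366 and 1482 reads, with ratios of 0.67 (0.56 to 0.79), 0.41 (0.29 to 0.53) and 0.53 (0.42 to 0.65). IFITM3 had 2850, 3566, 3357 and 3231 reads and stayed within 0.18 to 0.23.

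IFITM1 (ENSG00000185885, chromosome 11, 313506 to 315272), the plasma-membrane relative of the other 2, had 7, 16, 21 and 29 reads, or 0.417, 0.873, 1.22 and 1.67 FPKM. Its log2 ratio was 0.91 in Claret (-0.27 to 2.61), with an interval that spans 0. It was called higher in eGFP at 1.35 (0.29 to 3.05) and in Violet at 1.79 (0.82 to 3.48). The eGFP call was lost when p-values were adjusted over all genes without the level filter. The 3 IFITM genes lie within 19.9 kb, and 35.3% of the 31-base words of IFITM1, 45.2% of IFITM2 and 56.0% of IFITM3 occur in other genes. IFITM1 and IFITM2 also share 351 exonic bases on the same strand, so their counts are uncertain.

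MX1 and MX2 are dynamin-like GTPases, and MX1 traps viral nucleoproteins. MX1 (ENSG00000157601, chromosome 21, 41420304 to 41459214) had 56, 129, 96 and 81 reads, or 0.418, 0.882, 0.697 and 0.586 FPKM. It rose in Claret, by 1.07 (0.63 to 1.58), and had ratios of 0.75 (0.28 to 1.27) in eGFP and 0.51 (0.02 to 1.05) in Violet, both under the size of a call. The Claret value is close to that size, and its interval covers 1. MX2, with 74, 79, 78 and 94 reads, had ratios of -0.01, 0.06 and 0.33.

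In the ISG15 system, none of the 4 members was called, and all TMM-scaled ratios to Bulk were below 0, with medians of -0.19, -0.39 and -0.22. The sign does not hold under every scaling: without TMM the ratio was 0.0182 for USP18 in Claret and 0.0178 for HERC5 in Violet, and with the GC correction it was 0.0138 for HERC5 in eGFP. ISG15 itself had 607, 585, 525 and 532 reads, with ratios of -0.16, -0.22 and -0.19. HERC5, the ligase that attaches ISG15 to proteins, had 242, 222, 238 and 237 reads and ratios of -0.23, -0.03 and -0.03. USP18, the protease that removes ISG15 and also restrains the type I receptor, had 138, 148, 94 and 116 reads, with -0.01 in Claret and -0.55 (-0.96 to -0.18) in eGFP. USP18 shares 30.8% of its 31-base words with other genes, mainly USP41. HERC6 had 286, 240, 191 and 207 reads and ratios of -0.36, -0.59 and -0.47.

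Neither the nuclear-body, ubiquitin and ADP-ribose proteins nor the remaining effectors held a called gene. SP100, a nuclear-body protein, had 837, 1055, 1064 and 1042 reads, with ratios of 0.23, 0.33 and 0.31, and TRIM21, an antibody-binding ubiquitin ligase, had 321, 326, 244 and 230 reads, with -0.08, -0.40 and -0.48. PARP9 and PARP14, neighbouring ADP-ribosyltransferase genes, had ratios of -0.22, -0.10 and -0.44 and of -0.01, 0.21 and 0.20. TRIM22 had only 12, 16, 23 and 25 reads. In the last group IFI6, a mitochondrial and endoplasmic reticulum protein, stood highest, with 201, 398, 389 and 305 reads and ratios of 0.87 (0.63 to 1.13), 0.94 (0.69 to 1.19) and 0.59 (0.34 to 0.86). IFI44 (526, 506, 501 and 465 reads) and IFI35 (416, 468, 438 and 389) stayed within 0.18 of Bulk on the log2 scale. IFI44L, the neighbour of IFI44, had 95, 93, 102 and 96 reads, and IFI27 had 39, 37, 59 and 58.

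**Figure D3:**
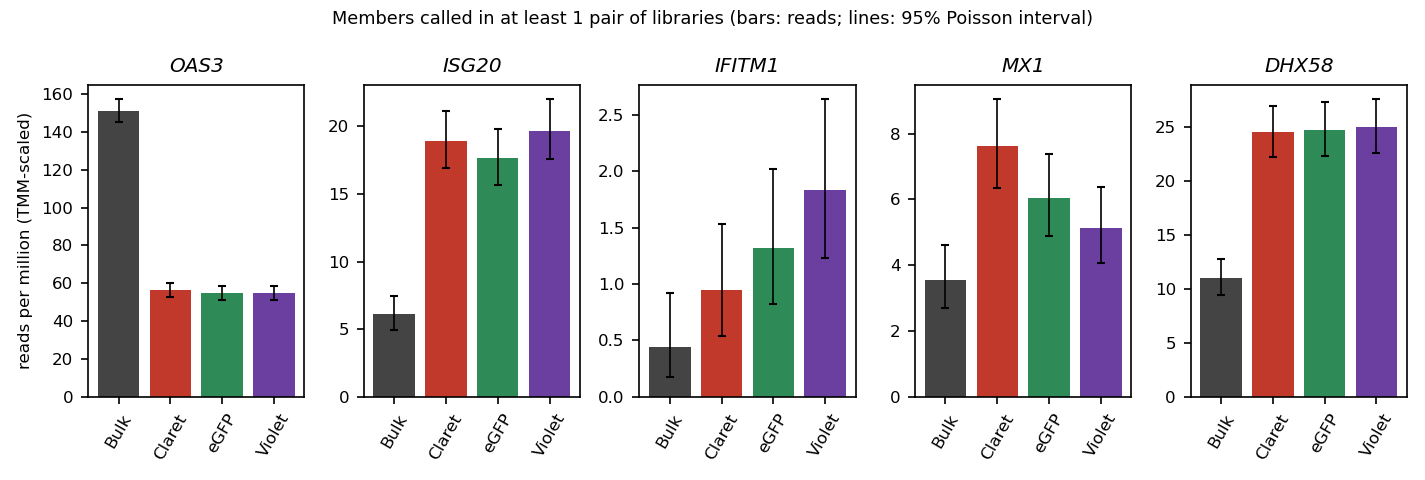
TMM-scaled CPM of OAS3, ISG20, IFITM1, MX1 and DHX58 in each library, with exact 95% intervals from counting error. OAS3 stands at 151 in Bulk and 54.9 to 56.3 in the slow-cycling libraries, and DHX58 at 11.0 in Bulk and at least 24.5 in the others.

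Of the 4 sensors, 1 was called in each comparison and it was DHX58. DHX58 (LGP2; ENSG00000108771, chromosome 17, 42101404 to 42112733) binds double-stranded RNA and modulates the signalling of the other 2 RNA helicases. It had 173, 416, 393 and 395 reads, or 2.90, 6.38, 6.40 and 6.40 FPKM. The slow-cycling libraries were nearly equal and did not approach Bulk. DHX58 rose by 1.15 (0.90 to 1.42), 1.16 (0.91 to 1.44) and 1.18 (0.93 to 1.45) on the log2 scale, or 2.22-fold to 2.26-fold, and each interval covers 1.

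IFIH1 (MDA5; ENSG00000115267, chromosome 2, 162267079 to 162318703), which senses long double-stranded RNA, had 149, 258, 263 and 251 reads, or 1.88, 2.98, 3.22 and 3.06 FPKM. Its ratios were 0.68 (0.39 to 0.99), 0.80 (0.51 to 1.11) and 0.74 (0.45 to 1.05). IFI16 (ENSG00000163565, chromosome 1, 158999968 to 159055155), a nuclear sensor of DNA and the most abundant sensor, had 659, 1126, 956 and 1048 reads, or 8.01, 12.5, 11.3 and 12.3 FPKM, with ratios of 0.67 (0.53 to 0.81), 0.52 (0.38 to 0.67) and 0.66 (0.52 to 0.81). In both genes Bulk was the lowest library and the intervals lay above 0, but the size was under that of a call.

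DDX58 (RIG-I; ENSG00000107201, chromosome 9, 32455705 to 32526324), the sensor of RNA with a 5′ triphosphate, lay near Bulk or below it. It had 598, 653, 518 and 577 reads, or 8.84, 8.84, 7.45 and 8.26 FPKM, and ratios of 0.02 in Claret, -0.22 (-0.39 to -0.05) in eGFP and -0.06 in Violet.

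None of the 5 transcription factors was called. STAT2 (ENSG00000170581, chromosome 12, 56341597 to 56360155), the ISGF3 subunit that carries the activation domain, had 1121, 1759, 1752 and 1743 reads, or 11.8, 16.97, 17.9 and 17.8 FPKM. Its ratios were 0.54 (0.43 to 0.65), 0.63 (0.52 to 0.74) and 0.63 (0.52 to 0.74). IRF7 (ENSG00000185507, chromosome 11, 612553 to 615999), which drives type I interferon genes, had 412, 708, 664 and 614 reads, or 10.1, 15.9, 15.8 and 14.6 FPKM, with ratios of 0.67 (0.50 to 0.85), 0.68 (0.50 to 0.86) and 0.57 (0.39 to 0.76). In both, the slow-cycling libraries lay together above Bulk.

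IRF9 (ENSG00000213928, chromosome 14, 24161053 to 24166565), the DNA-binding subunit of ISGF3, went the other way. It had 81, 51, 53 and 48 reads, or 1.37, 0.792, 0.874 and 0.788 FPKM, with ratios of -0.75 (-1.31 to -0.25), -0.60 (-1.15 to -0.11) and -0.74 (-1.30 to -0.23). An annotated gene on the same strand, AL136295.5, overlaps 48.4% of its exonic bases and had 25, 32, 34 and 24 reads, so the count of IRF9 is uncertain. STAT2 and IRF9, which act in 1 complex, therefore had ratios of opposite sign in all 3 slow-cycling libraries.

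IRF1, an activator that binds the same kind of element, had 228, 205, 253 and 186 reads, or 1.88, 1.55, 2.03 and 1.49 FPKM. Its ratios were -0.26 (-0.54 to 0.02), 0.14 (-0.12 to 0.40) and -0.29 (-0.58 to -0.01). C5orf56 overlaps 22.0% of its exonic bases on the opposite strand and had 23 to 41 reads, and without strand information their reads cannot be told apart. IRF2, which opposes IRF1 at many promoters, had 387, 505, 499 and 476 reads, or 7.99, 9.55, 10.0 and 9.51 FPKM, with ratios of 0.28, 0.35 and 0.29.

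Set side by side, the sensors and factors had higher median ratios to Bulk than the effectors. The median log2 ratio of the 29 effectors was -0.01, 0.06 and 0.01, with 13, 16 and 15 of them above 0. That of the 9 sensors and factors was 0.54, 0.52 and 0.57, with 7, 7 and 6 above 0 and 1 called (DHX58). Over all genes, 49.6%, 49.4% and 50.1% lay above 0. Called higher in each comparison were 6.9% of the effectors and 11.1% of the sensors and factors, beside 11.3%, 11.9% and 11.3% of all genes. Called lower were 3.45% and 0%, beside 6.68%, 7.63% and 7.01%. The calls thus do not set the classes apart from genes in general. Taken apart, the sensors had medians of 0.67, 0.66 and 0.70, and the factors 0.28, 0.35 and 0.29. The difference between the medians came to 0.55, 0.46 and 0.56, and it is a description, since genes of 1 class are not replicates and the classes were not tested against each other. The effectors were no uniform class either: the 4 membrane-acting genes had medians of 0.67 to 0.72, above those of the sensors and factors together, and the IFIT genes medians of -0.62 to -0.27.

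With a correction for GC content the differences between the medians were 0.44, 0.34 and 0.27, and with IFI16 counted as an effector they were 0.42, 0.42 and 0.34. With the groups taken from the treatment field they were -0.56, 0.03 and 0.09.

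**Figure D4:**
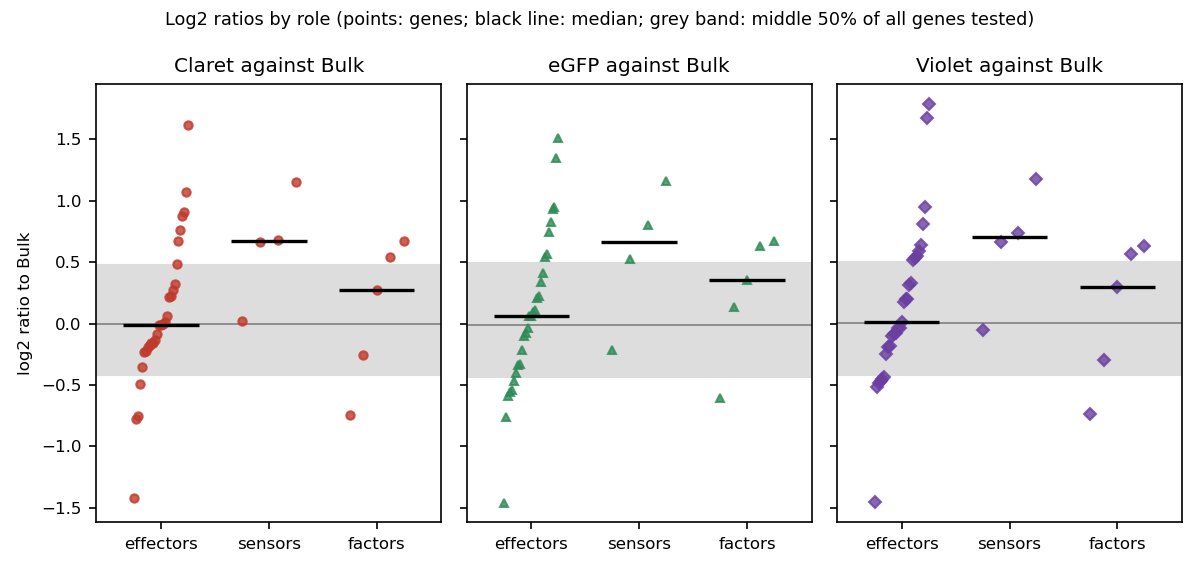
Log2 ratio to Bulk of every member kept, grouped as effectors, sensors and factors in Claret, eGFP and Violet, with 1 point per gene a black line at the class median, and a grey band for the middle 50% of all genes. The effector medians lie at -0.01 to 0.06, the sensor medians at 0.66 to 0.70 and the factor medians at 0.28 to 0.35, and the points of the classes overlap.

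Heterogeneity of dormant cells is the subject named in the series title, and the 3 label-retaining libraries were therefore set against one another as well. No member was called in any of the 3 pairs, where few genes were called at all: 0.315% higher and 0.446% lower in Claret against eGFP, 0.24% and 0.576% in Claret against Violet, and 0.288% and 0.727% in eGFP against Violet. The median size of a member's log2 ratio was 0.14, 0.12 and 0.12 in these pairs, and that of all genes 0.12, 0.13 and 0.13. Each pair of comparisons shares a library. OAS3, ISG20 and DHX58 differed little here, with 54.9 to 56.3 TMM-scaled CPM for OAS3, 17.6 to 19.7 for ISG20 and at least 24.5 for DHX58.

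Of 56 further genes of the pathway, 42 passed the level filter, and the interferons themselves did not. IFNA1, IFNB1, IFNE, IFNK and IFNG had 0 reads in all 4 libraries, IFNL1 had 5, 6, 0 and 0 reads, IFNL2 0, 4, 0 and 0, and IFNL3 0, 1, 0 and 0. These counts allow up to 0.193 CPM per library where no read was seen. Among the 42 genes, 3, 3 and 2 were called higher (7.14%, 7.14% and 4.76%, beside 11.3%, 11.9% and 11.3% of all genes), and 1, 2 and 2 were called lower (2.38%, 4.76% and 4.76%, beside 6.68%, 7.63% and 7.01%), with median log2 ratios of -0.21, -0.20 and -0.15.

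UBE2L6, the conjugating enzyme of the ISG15 system, had 497, 1082, 1133 and 1041 reads, and rose by 1.01, 1.18 and 1.06 on the log2 scale, whereas ISG15, HERC5, HERC6 and USP18 were not called. GBP2, an interferon-induced GTPase, had 1303, 2945, 2877 and 2664 reads and rose by 1.07, 1.13 and 1.03. SAMHD1, which depletes the nucleotides needed for DNA synthesis, had 1291, 657, 621 and 635 reads and fell by 1.08, 1.06 and 1.03.

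IRF5, a factor downstream of innate receptors, had 155, 336, 347 and 247 reads, was called higher in Claret (1.00) and eGFP (1.14), and had a ratio of 0.66 in Violet. TLR3, the endosomal sensor of double-stranded RNA, had 263, 141, 130 and 144 reads and was called lower in eGFP at -1.02, beside -0.99 in Claret and -0.86 in Violet. CGAS, the cytosolic DNA sensor, also known as MB21D1, had 859, 514, 439 and 385 reads and was called lower in Violet at -1.16, beside -0.84 in Claret and -0.98 in eGFP. Several of these ratios lie within 0.1 of the size needed for a call. None of the 5 receptor genes kept was called, and they did not share a direction. IFNAR1, a chain of the type I receptor, had 1074, 776, 708 and 662 reads, with ratios of -0.57, -0.61 and -0.70. The chains of the type II receptor lay above Bulk: IFNGR1 had 541, 963, 809 and 828 reads, with ratios of 0.72, 0.57 and 0.61, and IFNGR2 had 492, 767, 861 and 822 reads, with ratios of 0.53, 0.79 and 0.73.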

How the data were processed

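RNA from 4 sorted populations of MDA-MB-231 cells, 1 library each, was made into NEBNext Ultra libraries, per the labels' protocols. The deposited table holds whole-number read counts per gene, unnormalized per the file headers, and a second table deposited by the authors holds FPKM computed from the same counts. HISAT2 2.0.5 and featureCounts 1.5.0-p3 are named in the submitters' processing notes with no role. The genome build, whether strand was used and how multiply matching reads were treated are not given in the sources used here. Starts and ends of all 58735 genes equal those of GENCODE 29 (GRCh38), and coordinates are 1-based.

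Members were matched by gene symbol. The members, the role classes and the other gene lists were chosen with earlier results of these data known. Genes with a mean of at least 1 CPM were kept. Library sizes were scaled by TMM over all genes (edgeR 4.0.16, R 4.3.3), and a prior count of 2 was added before taking log2 CPM ratios. With 1 library per group edgeR's quasi-likelihood test leaves no degrees of freedom, so the reads of 2 libraries were compared by a two-sided exact conditional binomial test (scipy 1.17.1), adjusted by Benjamini-Hochberg over 14585 genes. Read ratios carry 95% Clopper-Pearson (exact) intervals. These and the floor of 3 reads (0.177 to 0.193 CPM) cover counting error only, since the reads carry no molecular identifiers. The binomial test, its intervals and the calls were run on counts simulated with counting error only and without TMM. That simulation cannot show how often 2 real libraries differ for other reasons.

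Full values are given for members called in any pair, the member with the highest mean FPKM in each role class, the sensors and the factors, and the other members named were added for completeness. Of the marker and pathway lists, 2 genes are not reported here. Shared 31-base words and exon overlaps were counted on GENCODE 29, and promoters are from RefSeq. Alternatives were library sizes without TMM, DESeq2 1.42.0 size factors, no filter, a filter at 10 CPM, a prior count of 0.5, log2(FPKM + 1), the treatment field, a GC correction, and changed member lists.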

Additional observations from a re-analysis of the deposited data

Results flagged for a closer look

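Differences between slow-cycling libraries, which amount to a difference of 2 libraries' ratios to Bulk, passed the adjusted binomial test with no minimum on size in 16 cases, in 11 members. These were 5 of 38 members in Claret against eGFP, 6 in Claret against Violet and 5 in eGFP against Violet, beside 12.6%, 17.6% and 17.4% of all genes, and adjusted p ran from 2.06e-05 to 0.0426. The test compares single libraries by counting error alone.

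In Claret against eGFP, the log2 ratio was 0.262 for IFITM2, 0.55 for USP18 and 0.238 for the sensor DDX58, and -0.221 for PARP14 and -0.395 for IRF1. In Claret against Violet it was 0.138 for IFITM2, 0.558 for MX1 and 0.398 for TRIM21, and -0.458 for IFIT1, -0.301 for IFIT5 and -0.216 for PARP14. In eGFP against Violet it was -0.433 for IFIT1 and -0.31 for IFIT5, and 0.332 for PARP9, 0.342 for IFI6 and 0.433 for IRF1. IFIT1 and IFIT5 were thus higher in Violet than in both other slow-cycling libraries, and IRF1 was higher in eGFP than in both others.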

How the results depend on the processing

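No paired analysis was possible because each group holds 1 library, and leaving out a library leaves its group empty. Library sizes without TMM, DESeq2 size factors and a prior count of 0.5 changed no call of OAS3, ISG20, IFITM1, MX1 or DHX58, and the filter at 10 CPM changed none of OAS3, ISG20 and DHX58 but removed IFITM1 and MX1 from the test. On log2(FPKM + 1) no test was run, and a call needed only a ratio of at least 1 in size. On this scale 0 members were called higher in each of the slow-cycling libraries, while OAS3 was still called lower. Of the 14585 genes, 589, 633 and 533 were called higher there, and 619, 725 and 743 lower. The DHX58 ratios there were 0.92, 0.93 and 0.93, that of MX1 in Claret was 0.41, and those of IFITM1 were 0.65 in eGFP and 0.92 in Violet. This scale shrinks differences of genes with low FPKM. Without the filter, IFITM1 in eGFP kept its ratio of 1.35 and lost its call, as more genes were tested. With the GC correction the difference between the medians of sensors and factors and of effectors was 0.27 in Violet, and the cause was not tested.

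With groups from the treatment field, the library titled Violet becomes the reference, and the results against Bulk did not hold. Of 38 members, 1, 0 and 0 were called higher (Claret, eGFP, Violet), where 1023, 35 and 42 of the 14585 genes were. Members called lower were 3, 0 and 0, where 1641, 84 and 106 of the 14585 genes were. The difference between the medians was -0.558 (Claret), 0.032 (eGFP) and 0.0859 (Violet). Ratios that reversed were those of OAS3 (1.46 in Claret, 0.0352 in eGFP), ISG20 (-1.67, -0.0565 and -0.157 in Claret, eGFP and Violet), IFITM1 (-1.79, -0.88 and -0.44), DHX58 (-1.18, -0.0277 and -0.0143) and MX1 (-0.51 in Claret). Under that field the library called Claret is the one titled Bulk, which had the most MKI67 reads (6778, beside 689 to 995) and TOP2A reads (14220, beside 2487 to 3399). Depth limits IFITM1, with 7 reads in Bulk, and RSAD2 and XAF1, with at most 6 reads in any library.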
